A study of Mus musculus with 18 samples.

Results

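Mouse alveolar type 2 cultures given an agonist of the Wnt receptor Fzd6 were compared by RNA sequencing with the same kind of culture given Wnt itself. The comparison uses 6 of the 18 libraries in the series, all 3 titled for the FZD6 agonist and all 3 titled for WNT. They were taken by title, but the comparison was chosen with earlier results of these data known. Per the labels, lung cells of the alveolar type 2 kind were kept for 19 days with CHIR99201 (CHIR below), which the series describes as a Wnt agonist. In the FZD6 agonist group CHIR was then taken away and an agonist of Fzd6 put in its place. In the WNT group Wnt was put in its place. LGK974, an inhibitor of the acyltransferase porcupine, was present in both groups and in the other 4 (FZD5 agonist, 24 h and 48 h of CHIR withdrawal, and CHIR). Treatments lasted 8 to 12 h. The labels give no strain, sex, age, dose, kind of agonist molecule or species of Wnt, and no sequencing batch. They do not say how long the cells of either ligand group had been without CHIR, so ligand and time without CHIR cannot be told apart between groups. Whether a group's 3 libraries stem from different animals or dishes is not stated either, so p-values reflect only the variation among the libraries sequenced, and that variation may be technical.

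Wnt proteins bind Frizzled receptors together with the co-receptors Lrp5 or Lrp6, which spares beta-catenin from destruction and lets it act with TCF and LEF factors on target genes. Porcupine attaches the lipid that Wnt proteins need for secretion, so its inhibitor limits what the cells themselves make while leaving added ligand free to act. In the mouse alveolus, Wnt signalling is known for keeping type 2 cells, the surfactant-making stem cells, from turning into the thin type 1 cells of gas exchange.

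The 6 libraries held 41480168 to 52030066 gene counts each, within the range of 31509607 to 52030066 over all 18. The surfactant gene Sftpc took 9.11% of counts in FZD6 agonist 1, 4.90% and 5.18% in FZD6 agonist 2 and 3, and 4.03% to 4.98% in the WNT libraries. FZD6 agonist 1 stood apart. Its median correlation with the other 17 libraries was 0.950, against 0.981 to 0.982 for FZD6 agonist 2 and 3 and 0.980 to 0.982 for WNT. Its counts gave a chi-square of 278 and 266 per degree of freedom against FZD6 agonist 2 and 3, while those 2 gave 8.34 against each other and the WNT libraries 14.3 to 33.1. FZD6 agonist 1 had 0 counts of Xist, the RNA of the inactive X chromosome, and 0 of the oestrogen receptor gene Esr1. FZD6 agonist 2 and 3 had 396 and 418 counts of Xist and 14974 and 16267 of Esr1, and the WNT libraries had at least 265 and 9024. Summed over 8 basal cell markers it reached 173 CPM (counts scaled to a library size of 1000000 after TMM), against 0.214 and 0.392 CPM in FZD6 agonist 2 and 3 and 0.0240 to 0.785 CPM with WNT. The 22 alveolar type 2 markers summed to 152805 CPM in FZD6 agonist 1, 110900 and 115405 CPM in FZD6 agonist 2 and 3, and 102237 to 115186 CPM with WNT. Sftpc made up most of the sum in FZD6 agonist 1. That library lay below all WNT libraries for 16 of the 22 markers (38.7% over all genes) and above all for 5 (38.5% over all genes). All 22 markers were detected in FZD6 agonist 2 and 3. Ptprc of blood cells, Col3a1 of fibroblasts and Cdh5 of endothelium were at 0 in all 6 libraries. Their full lists summed to 9.83, 9.29 and 6.13 CPM (haematopoietic) and 0, 1.57 and 0.761 CPM (mesenchymal) in FZD6 agonist 1, 2 and 3, against 8.02 to 13.6 CPM and 0.336 to 0.942 CPM with WNT. The endothelial list summed to 529, 544 and 547 CPM in FZD6 agonist 1, 2 and 3 and 335 to 366 CPM with WNT, nearly all of it Esam. The 3 against 3 libraries are therefore described first, and the comparison is given again without FZD6 agonist 1.

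With all 3 FZD6 agonist libraries, no gene passed the test against WNT. The quasi-likelihood test of edgeR, fitted on 18 libraries, called 0 of 16497 genes at an adjusted p under 0.05 (0%), while at an unadjusted p under 0.05 it found 606. With DESeq2 the number was 61, 41 of them higher with the FZD6 agonist, and with limma voom and quality weights, which give outlying libraries less influence, it was 3674. The 6 genes nearest the edgeR threshold were Steap1, Car2, Lyz1, Mcpt2, Mical1 and Susd3, and for all 6 each FZD6 agonist library lay above every WNT library. Over all genes tested, 12.7% were separated upwards in this way and 11.5% downwards, but the 6 were picked by p from these same libraries.

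Steap1, a metalloreductase (chr5:5736317-5749326, minus strand, with gene positions from GENCODE M21 on GRCm38), was at 22.1, 11.9 and 12.5 CPM in FZD6 agonist 1, 2 and 3, against 2.66, 4.02 and 3.38 CPM in WNT 1, 2 and 3. It had the smallest p of all genes (log2 fold change 2.20 with SE 0.32 and adjusted p = 0.0863 in edgeR). Car2, a carbonic anhydrase (chr3:14886273-14900770, plus strand), was at 145, 120.1 and 112 CPM with the FZD6 agonist and 41.9, 24.9 and 27.8 CPM with WNT (log2 fold change 1.99 with SE 0.32 and adjusted p = 0.107 in edgeR). For Steap1 and Car2 the outlying library lay on the same side as the other 2 FZD6 agonist libraries and above them. Lyz1, a lysozyme of alveolar type 2 cells (chr10:117287797-117292868, minus strand), was at 6154, 1481 and 1279.9 CPM with the FZD6 agonist and 406, 219 and 275 CPM with WNT (log2 fold change 3.31 with SE 0.54 and adjusted p = 0.107 in edgeR). FZD6 agonist 1 held over 4 times the Lyz1 level of either other FZD6 agonist library, while its neighbour and near-copy Lyz2 was at 793, 2008 and 2011 CPM with the FZD6 agonist and 1600.2, 1421 and 1446 CPM with WNT, so reads split between the pair are uncertain. When FZD6 agonist 1 was kept and only the 3 outlying libraries of other groups (CHIR 1, CHIR 3 and 24 h withdrawal 2) were left out, 739 genes were called, 409 of them higher. Of these, 705 were also called in the same direction without FZD6 agonist 1, in a fit that shares all the other libraries. Steap1, Car2 and Lyz1 were among the 739 (edgeR adjusted p = 0.000703, 0.000112 and 0.00581 in that 15-library fit). FZD6 agonist 1 lay above all 3 WNT libraries for 38.5% and below all 3 for 38.7% of the 17433 genes tested without it, shares against which its counts in the lists below are to be read.

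Without FZD6 agonist 1, all listed genes of mitosis and many of ribosome production and serine synthesis were higher with the FZD6 agonist than with WNT. So were Axin2, Rnf43 and Znrf3, negative feedback genes of canonical Wnt signalling, but Rnf43 and Znrf3 lost their calls on most omissions of 1 library. Nkd1, another feedback gene, was lower in all 3 FZD6 agonist libraries but did not pass. The listed Wnt targets Notum, Apcdd1 and Wif1 were not called. Hp, Retnla, Htra4 and Fbp1 were among the genes that were lower. This fit held 14 libraries, without the 3 outlying libraries of other groups, and compared FZD6 agonist 2 and 3 with WNT 1, 2 and 3. The common biological coefficient of variation was 0.125 over these 14 libraries and 0.439 over all 18. The test called 2057 of 17433 genes (11.8%), 1153 higher with the FZD6 agonist (6.61%) and 904 lower (5.19%). Of the called genes, 262 were higher and 141 lower by more than 1 on the log2 scale. With only FZD6 agonist 1 left out and the other 3 outlying libraries kept, 0 genes were called and 369 had an unadjusted p under 0.05. The count also rests on single libraries, at 644 without FZD6 agonist 2, 781 without FZD6 agonist 3 and 1197 without WNT 3. It was 1603 without WNT 1 and 1637 without WNT 2. Of 2048 called genes tested in both fits, 1953 kept their sign with FZD6 agonist 1 included, and for 1050 all 3 FZD6 agonist libraries lay on the called side of all 3 WNT libraries. FZD6 agonist 2 and 3 and the WNT libraries made the calls and enter both numbers, so neither is independent of the calls. The 3 and 3 libraries did not overlap for 24.2% of all genes tested, which is therefore no matching baseline. FZD6 agonist 1 by itself lay above all WNT libraries for 38.5% of all genes and below them for 38.7%. The 15-library fit shares those libraries too. In it 705 of the 2057 were called in the same direction, 1262 kept their sign without a call and 90 had the opposite sign. Fold changes and p-values below are without FZD6 agonist 1 unless another fit is named.

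**Figure D1:**
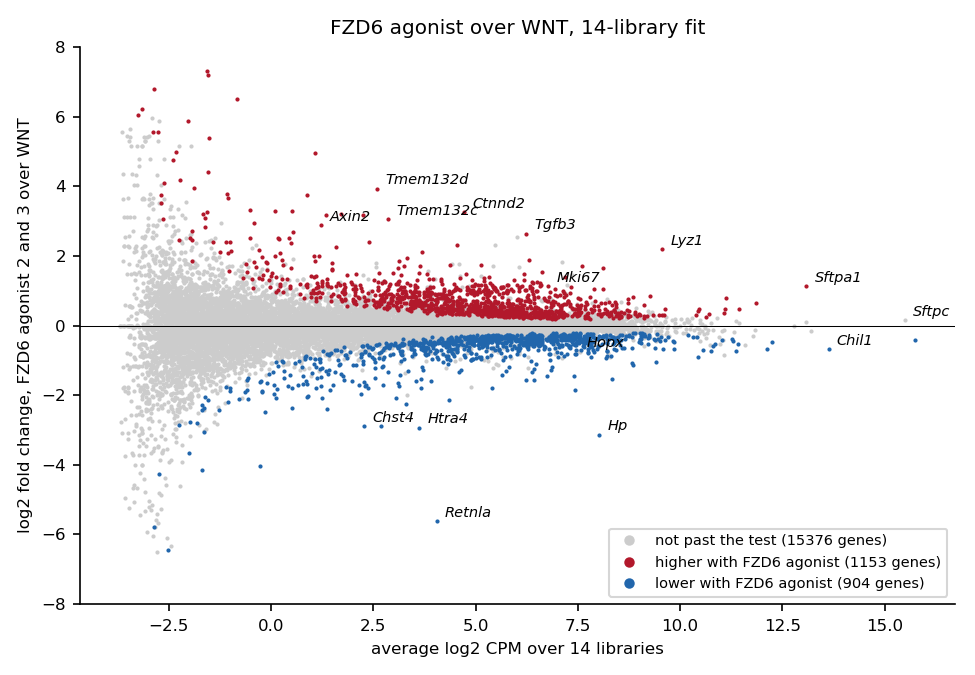
Each point is 1 gene of the 14-library fit, with its average level (log2 CPM) on the x axis and its log2 fold change, FZD6 agonist 2 and 3 over WNT, on the y axis, red for the 1153 called higher, blue for the 904 called lower and grey for the rest. Retnla and Hp lie lowest among the labelled genes and Tmem132d and Ctnnd2 highest, while Sftpc lies close to 0.

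Canonical Wnt target genes were split, with more of them higher than lower with the FZD6 agonist. Of 25 targets listed, 22 passed the filter on low counts, and of these 8 rose (Axin2, Sox9, Myc, Sp5, Rnf43, Tcf7, Lgr5 and Znrf3) and 3 fell (Bambi, Ephb3 and Cd44). Over all genes 6.61% rose and 5.19% fell. The median log2 fold change of the targets was 0.40, against -0.0046 over all genes tested. It was 0.43 with genes at 0 in a group set to a floor of 3 counts per library. From that second median 1 gene was left out, as neither group exceeded the floor. With FZD6 agonist 1 in the 18-library fit, 0 of 19 were called and the median was 0.63. In the 15-library fit that kept it, 5 rose and 3 fell. The count of higher targets was 3 without FZD6 agonist 2, 2 without FZD6 agonist 3 and 5 without WNT 3, and the count of lower ones was 1 without FZD6 agonist 3. The list was written with earlier results of these data known.

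Axin2, the scaffold that promotes beta-catenin destruction and is a common readout of the pathway (chr11:108920349-108950783, plus strand), was at 1.09, 2.90 and 2.12 CPM in FZD6 agonist 1, 2 and 3, against 0.384, 0.373 and 0.238 CPM in WNT 1, 2 and 3. All 3 FZD6 agonist libraries lay above all 3 WNT libraries, at low levels throughout. Axin2 rose without FZD6 agonist 1 (log2 fold change 2.89 with SE 0.41 and adjusted p = 0.000336 in edgeR) and kept its call with any of the 5 libraries left out. Sox9, a factor of the distal tip progenitors in the embryonic lung (chr11:112782224-112787760, plus strand), was at 7.51, 5.53 and 4.13 CPM with the FZD6 agonist and 0.432, 0.746 and 0.381 CPM with WNT (log2 fold change 3.18 with SE 0.46 and adjusted p = 0.000792 in edgeR). Its groups did not overlap, and FZD6 agonist 1 was the highest of the 6. Myc, a growth-promoting transcription factor (chr15:61985391-61990374, plus strand), was at 91, 42.1 and 45.6 CPM with the FZD6 agonist and 18.9, 24.4 and 24.1 CPM with WNT (log2 fold change 0.96 with SE 0.18 and adjusted p = 0.00445 in edgeR), and lost its call without FZD6 agonist 3. In the 15-library fit the 3 genes were also called, Axin2 at a log2 fold change of 2.59, edgeR adjusted p = 0.0122, Sox9 at 3.42, edgeR adjusted p = 0.00316, and Myc at 1.39, edgeR adjusted p = 0.0147.

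Lgr5, a receptor for R-spondins that marks Wnt-responsive stem cells in several mouse epithelia (chr10:115450311-115587780, minus strand), was at 2.69, 0.855 and 1.22 CPM with the FZD6 agonist and 0, 0.216 and 0.310 CPM with WNT (log2 fold change 2.52 with SE 0.68 and adjusted p = 0.0303 in edgeR). Its groups did not overlap, but the WNT libraries held few counts, and the call was lost without FZD6 agonist 2, FZD6 agonist 3 or WNT 2. Rnf43 and Znrf3 encode membrane ubiquitin ligases that remove Frizzled receptors from the cell surface. Rnf43 (chr11:87662722-87735539, plus strand) was at 28.7, 53.6 and 53.5 CPM with the FZD6 agonist and 36, 45.1 and 41.8 CPM with WNT (log2 fold change 0.38 with SE 0.094 and adjusted p = 0.0156 in edgeR). In FZD6 agonist 1 Rnf43 lay below all WNT libraries, the 15-library fit did not call it (log2 fold change 0.13, edgeR adjusted p = 0.739), and the call was lost without FZD6 agonist 2, FZD6 agonist 3 or WNT 1. Znrf3 was at 16, 17 and 16.4 CPM with the FZD6 agonist and 11.2, 8.42 and 8.10 CPM with WNT (log2 fold change 0.85 with SE 0.23 and adjusted p = 0.0317 in edgeR), without overlap, and kept its call only without WNT 1. It just missed in the 15-library fit (log2 fold change 0.82, edgeR adjusted p = 0.0514). Tcf7, a partner of beta-catenin on DNA, was at 3.44, 1.85 and 2.54 CPM with the FZD6 agonist and 1.18, 0.805 and 0.501 CPM with WNT (log2 fold change 1.40 with SE 0.35 and adjusted p = 0.0159 in edgeR). Its groups did not overlap, and its call was lost without FZD6 agonist 2, FZD6 agonist 3 or WNT 3.

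Sp5, a repressor of the Sp family that beta-catenin activates, was at 37.2, 109 and 102 CPM with the FZD6 agonist and 84, 78.7 and 79.8 CPM with WNT (log2 fold change 0.38 with SE 0.092 and adjusted p = 0.0145 in edgeR). FZD6 agonist 2 and 3 lay above the WNT libraries and FZD6 agonist 1 lay far below them. The 15-library fit did not call Sp5 (log2 fold change 0.024, edgeR adjusted p = 0.973), and the call was lost without FZD6 agonist 2, FZD6 agonist 3 or WNT 3. Its promoter is shown because its upstream sequence holds the core letters bound by TCF and LEF factors. It is the only called target to do so among the 15 listed targets with a promoter in the RefSeq set. Lgr5 and Sox9, also called, had none in that set. The 250 bases before its RefSeq start (chr2:70474673-70474922, plus strand, GRCm38.p6) run as follows, with CTTTGA in capitals.
Sp5: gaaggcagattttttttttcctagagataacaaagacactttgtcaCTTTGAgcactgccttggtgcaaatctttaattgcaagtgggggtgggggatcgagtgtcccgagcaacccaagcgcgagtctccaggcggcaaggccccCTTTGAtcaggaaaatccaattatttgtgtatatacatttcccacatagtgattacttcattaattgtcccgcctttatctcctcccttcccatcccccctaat
The letters CTTTGA were searched on both strands and stand 204 and 104 bases before the start of Sp5. They occur in 13.8% of 32851 RefSeq mouse promoters of this length. Counted per gene, they occur in 15.8% of 27025 genes and in 4 of the 15 Wnt targets with a promoter in that set. A match is a description of the letters, not of binding.

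The 3 targets that fell included Bambi, a decoy receptor that blocks TGF beta and BMP signalling. Bambi was at 18.9, 16.7 and 16.5 CPM with the FZD6 agonist and 30.4, 29.5 and 31.6 CPM with WNT (log2 fold change -0.89 with SE 0.12 and adjusted p = 0.000167 in edgeR). All 3 FZD6 agonist libraries lay below all 3 WNT libraries, and Bambi kept its call with any of the 5 libraries left out and in the 15-library fit (log2 fold change -0.83, edgeR adjusted p = 0.00184). Ephb3, a receptor for ephrin-B ligands (chr16:21204755-21223305, plus strand), was at 78.8, 58.2 and 54.9 CPM with the FZD6 agonist and 75.8, 86.3 and 86.6 CPM with WNT (log2 fold change -0.56 with SE 0.11 and adjusted p = 0.00327 in edgeR). The outlying library lay within the WNT range, and the call was lost without FZD6 agonist 3. Cd44, a receptor for hyaluronan, was at 95.8, 101 and 91.6 CPM with the FZD6 agonist and 117, 132 and 131 CPM with WNT (log2 fold change -0.40 with SE 0.088 and adjusted p = 0.0075 in edgeR), without overlap, and also lost its call without FZD6 agonist 3. Nkd1, an inhibitor of Dishevelled that is itself a Wnt target (chr8:88521354-88594884, plus strand), was at 12.2, 32 and 28.4 CPM with the FZD6 agonist and 48.7, 80.9 and 79.4 CPM with WNT. Its groups did not overlap, yet it did not pass without FZD6 agonist 1 (log2 fold change -1.21 with SE 0.40 and adjusted p = 0.0962 in edgeR). It passed in the 15-library fit (log2 fold change -1.53, edgeR adjusted p = 0.0395).

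**Figure D2:**
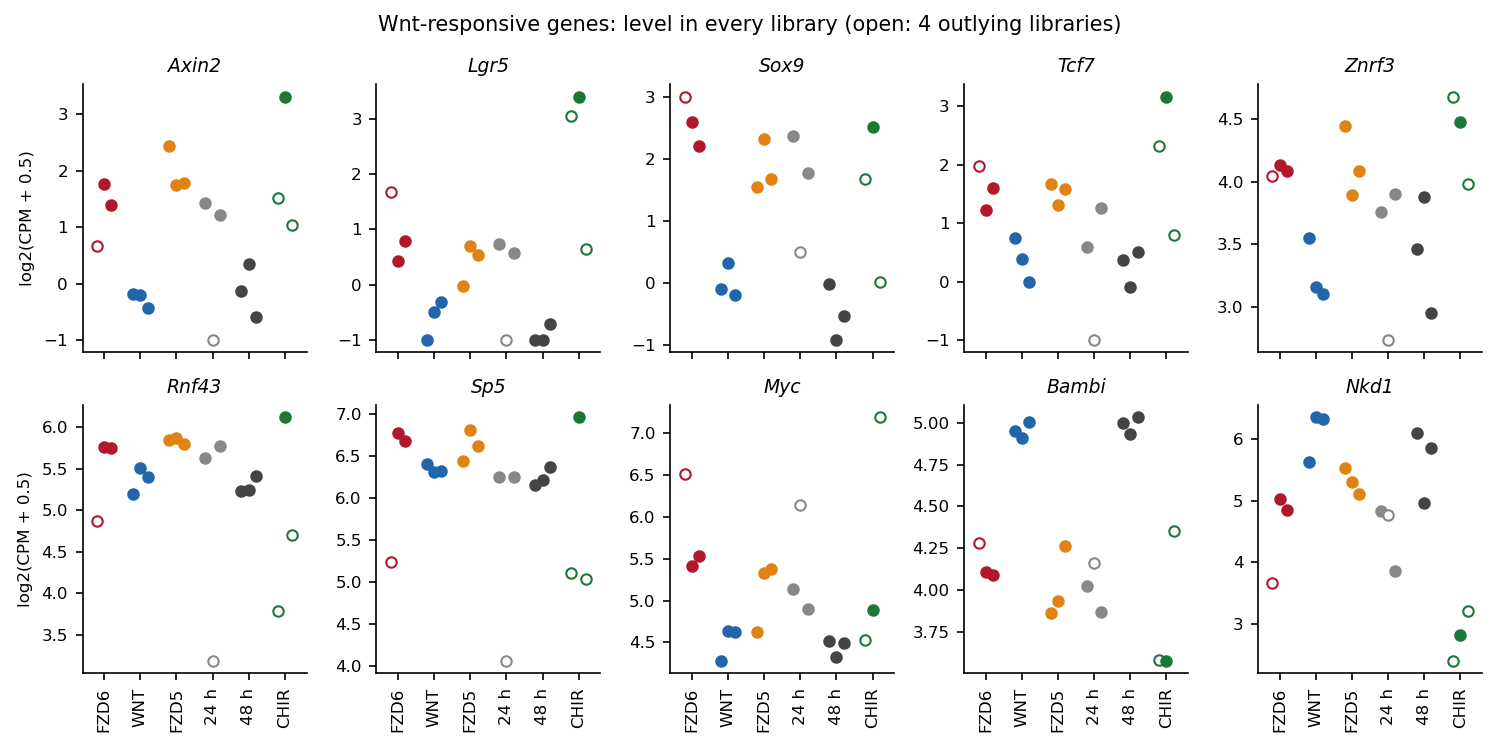
Levels of 10 Wnt-responsive genes in all 18 libraries, as log2 of CPM plus 0.5 on the y axis (each panel with its own scale), with 1 point per library, groups along the x axis (24 h and 48 h are CHIR withdrawal) and the 4 outlying libraries open. Axin2, Lgr5, Sox9, Tcf7 and Znrf3 are higher in all 3 FZD6 agonist libraries than in any WNT library, and Bambi and Nkd1 are lower, while for Rnf43 and Sp5 the open FZD6 agonist point lies below the WNT points.

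Among the receptors, Fzd6, the stated target of the agonist (chr15:39006034-39038188, plus strand), was at 86.6, 74.6 and 77.9 CPM with the FZD6 agonist and 73, 70.3 and 62.1 CPM with WNT. Every FZD6 agonist library lay above every WNT library by a small margin that did not pass (log2 fold change 0.15 with SE 0.087 and adjusted p = 0.322 in edgeR). Fzd5 (chr1:64730558-64737751, minus strand) was at 10.9, 13.1 and 10.4 CPM with the FZD6 agonist and 9.86, 11 and 10.9 CPM with WNT, with overlapping groups (log2 fold change 0.14 with SE 0.15 and adjusted p = 0.623 in edgeR). Of 18 receptors and co-receptors tested, 2 rose (Fzd7 and Ryk) and 0 fell, near the shares over all genes (6.61% higher, 5.19% lower), and in the 15-library fit 0 were called. Fzd7 was at 65.1, 115 and 113 CPM with the FZD6 agonist and 77.1, 97 and 89 CPM with WNT (log2 fold change 0.37 with SE 0.10 and adjusted p = 0.0213 in edgeR). Ryk, an atypical receptor of the kinase type, was at 124, 142 and 137 CPM with the FZD6 agonist and 122, 116 and 114 CPM with WNT (log2 fold change 0.24 with SE 0.071 and adjusted p = 0.0384 in edgeR). When libraries were left out, Fzd7 kept its call only without WNT 2 and Ryk only without WNT 1. In FZD6 agonist 1 Fzd7 lay below the WNT libraries and Ryk above them. On the authors' RPKM scale, which divides by gene length, Fzd1 was the most abundant Frizzled gene in FZD6 agonist 2 and 3 and with WNT, at a mean of 34.0 RPKM in FZD6 agonist 2 and 3 and 32.0 ± 4.73 RPKM with WNT (SD, n = 3). Fzd7 was at a mean of 21.7 RPKM in FZD6 agonist 2 and 3 and 16.2 ± 1.78 RPKM with WNT, and Fzd6 at 15.9 RPKM in FZD6 agonist 2 and 3 and 13.9 ± 1.12 RPKM with WNT. Fzd5 was lowest of the 4, at 1.46 RPKM in FZD6 agonist 2 and 3 and 1.28 ± 0.0739 RPKM with WNT. With WNT, Fzd7 and Fzd6 differed by less than the sum of their SDs. The order differed in FZD6 agonist 1, where Fzd6 was highest at 17.2 RPKM, followed by Fzd4 at 13.7, Fzd7 at 11.8 and Fzd1 at 10.9 RPKM.

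Of 11 Wnt ligands and secretion genes tested, 1 rose and 1 fell, again near the shares over all genes (6.61% and 5.19%). Wnt7b, a ligand of lung epithelium (chr15:85535437-85582473, minus strand), was at 39.9, 36.8 and 31.5 CPM with the FZD6 agonist and 18, 16.9 and 15.2 CPM with WNT (log2 fold change 1.02 with SE 0.14 and adjusted p = 0.000223 in edgeR). The groups did not overlap, and Wnt7b kept its call with any of the 5 libraries left out and in the 15-library fit (log2 fold change 1.10, edgeR adjusted p = 0.00128). Wnt4 (chr4:137277489-137299726, plus strand) was at 29.9, 19.7 and 19 CPM with the FZD6 agonist and 29.2, 27.3 and 29.7 CPM with WNT (log2 fold change -0.58 with SE 0.14 and adjusted p = 0.0119 in edgeR). In FZD6 agonist 1 Wnt4 lay just above the WNT libraries, opposite to the other 2, and the call was lost without FZD6 agonist 2 or 3. In the destruction complex and Dishevelled list 2 of 13 rose, against 6.61% of all genes, and 1 of 13 in the 15-library fit. They were Apc, which lost its call with any of the 5 libraries left out (log2 fold change 0.27 with SE 0.079 and adjusted p = 0.0345 in edgeR), and Axin1, which kept it only without WNT 2 (log2 fold change 0.23 with SE 0.071 and adjusted p = 0.0419 in edgeR). In the planar cell polarity list 0 of 10 rose and 1 fell, Prickle1 (log2 fold change -1.18 with SE 0.30 and adjusted p = 0.0169 in edgeR), which kept its call only without WNT 2 and was not called in the 15-library fit (log2 fold change -0.51, edgeR adjusted p = 0.479). Over all genes 5.19% fell.

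Genes of mitosis were higher with the FZD6 agonist as a whole list, about 2-fold. All 25 genes of the mitosis and G2/M list rose without FZD6 agonist 1, against 6.61% of all genes, at log2 fold changes of 0.83 to 1.32 and a median of 1.08. With each of the 5 libraries left out in turn, 24 or 25 were still called, the exception being Plk1 without FZD6 agonist 2. FZD6 agonist 1 did not share this level. It lay below all 3 WNT libraries for 21 of the 25 genes (38.7% over all genes) and above all 3 for 1 (38.5% over all genes). In the 18-library fit 0 of 25 were called and the median was 0.74, and in the 15-library fit 1 was called, Prc1 (log2 fold change 0.80, edgeR adjusted p = 0.0153). In bulk RNA, more dividing cells and more of these transcripts per cell cannot be told apart.

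Mki67, a protein of the chromosome surface in dividing cells (chr7:135689784-135716361, minus strand), was at 36.5, 163 and 126 CPM in FZD6 agonist 1, 2 and 3, against 66, 63.7 and 67.3 CPM in WNT 1, 2 and 3 (log2 fold change 1.13 with SE 0.16 and adjusted p = 0.00097 in edgeR). FZD6 agonist 2 and 3 held about 2 times the WNT level, and FZD6 agonist 1 was the lowest of the 6 libraries. Bub1, a kinase of the spindle checkpoint (chr2:127801122-127831865, minus strand), was at 35.5, 101 and 90.9 CPM with the FZD6 agonist and 41.4, 37.3 and 37.4 CPM with WNT (log2 fold change 1.31 with SE 0.13 and adjusted p = 4.91e-05 in edgeR). Cdk1, the kinase that drives entry into mitosis, was at 39.5, 128 and 111 CPM with the FZD6 agonist and 70.01, 53.7 and 56 CPM with WNT (log2 fold change 0.99 with SE 0.12 and adjusted p = 0.00013 in edgeR). Both showed the same arrangement, with FZD6 agonist 1 below and FZD6 agonist 2 and 3 above the WNT libraries. The centromeric histone Cenpa was at 16.1, 57.6 and 51.2 CPM with the FZD6 agonist and 28.7, 23.4 and 20.5 CPM with WNT (log2 fold change 1.16 with SE 0.13 and adjusted p = 5.02e-05 in edgeR). The spindle protein Nusap1 was at 14.3, 53.4 and 47.4 CPM with the FZD6 agonist and 26.5, 23 and 24.2 CPM with WNT (log2 fold change 1.03 with SE 0.11 and adjusted p = 4.76e-05 in edgeR). None of Mki67, Bub1, Cdk1, Cenpa and Nusap1 was called in the 15-library fit, where edgeR gave the smallest adjusted p to Bub1 (log2 fold change 0.96, edgeR adjusted p = 0.0771).

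The promoters of Cdk1 and Mki67 are shown as 2 of the mitosis genes that moved together. The letters TTTGAA, the core of the element called the cell cycle genes homology region, are in capitals and were chosen after the values were seen. Each sequence is the 250 bases before the RefSeq start on GRCm38.p6, for Cdk1 at chr10:69352913-69353162, minus strand, and for Mki67 at chr7:135716380-135716629, minus strand.
Cdk1: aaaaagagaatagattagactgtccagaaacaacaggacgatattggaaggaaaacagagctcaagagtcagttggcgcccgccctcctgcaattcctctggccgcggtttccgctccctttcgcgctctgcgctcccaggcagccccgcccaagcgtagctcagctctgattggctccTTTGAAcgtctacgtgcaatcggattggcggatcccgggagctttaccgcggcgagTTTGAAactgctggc
Mki67: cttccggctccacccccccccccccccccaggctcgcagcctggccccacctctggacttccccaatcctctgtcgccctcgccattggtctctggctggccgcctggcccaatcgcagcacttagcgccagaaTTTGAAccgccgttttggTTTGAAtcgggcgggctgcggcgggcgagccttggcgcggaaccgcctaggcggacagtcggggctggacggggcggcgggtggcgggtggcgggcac
Searched on both strands, TTTGAA stands 71 and 15 bases before the start of Cdk1 and 116 and 98 bases before that of Mki67. The first match in Cdk1 follows a C, so that it also reads CTTTGA, the letters searched above. TTTGAA occurs in 16.0% of all 32851 promoters. Counted per gene, it occurs in 18.3% of 27025 genes and in 8 of the 20 mitosis genes with a promoter in the set. No binding is implied by a match.

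Genes of DNA replication leaned the same way. Of 25 genes of the G1/S list, 14 rose and 0 fell, against 6.61% and 5.19% over all genes. All 25 had positive fitted values, with a median log2 fold change of 0.64. The 14 included the replication licensing gene Cdt1 (18.7, 28.3 and 25.2 CPM with the FZD6 agonist, 16.6, 11.6 and 12.1 CPM with WNT, log2 fold change 0.99 with SE 0.14 and adjusted p = 0.000393 in edgeR). For Cdt1 FZD6 agonist 1 lay above the WNT libraries with the other 2. Rrm1, of ribonucleotide reductase, was at 91.6, 199 and 185 CPM with the FZD6 agonist and 137, 105 and 111 CPM with WNT (log2 fold change 0.70 with SE 0.10 and adjusted p = 0.000547 in edgeR), and the helicase subunit Mcm2 was at 52.6, 99.8 and 92.4 CPM with the FZD6 agonist and 64.4, 52.2 and 60.9 CPM with WNT (log2 fold change 0.69 with SE 0.12 and adjusted p = 0.00215 in edgeR). FZD6 agonist 1 lay below all WNT libraries for 18 of the 25 genes, against 38.7% over all genes. The count of 14 was 4 without FZD6 agonist 2 and 9 without FZD6 agonist 3, and 1 of 25, Cdt1, was called in the 15-library fit.

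Most listed ribosome biogenesis genes rose as well, and here FZD6 agonist 1 lay on the same side. Of 20 genes 12 rose and 0 fell, against 6.61% and 5.19% over all genes, with a median of 0.37. FZD6 agonist 1 lay above all WNT libraries for 19 of the 20, against 38.5% over all genes. In the 15-library fit 11 of the 20 rose. Nop58, a core protein of box C/D small nucleolar ribonucleoproteins (chr1:59684971-59719044, plus strand), was at 68, 50.8 and 56 CPM with the FZD6 agonist and 29.6, 32.2 and 37.2 CPM with WNT (log2 fold change 0.69 with SE 0.10 and adjusted p = 0.000547 in edgeR). Ncl, nucleolin, was at 349.99, 327 and 321 CPM with the FZD6 agonist and 249, 243 and 258 CPM with WNT (log2 fold change 0.37 with SE 0.067 and adjusted p = 0.00233 in edgeR). Neither gene had overlapping groups, and both kept their call with any of the 5 libraries left out. The list's count was 3 without FZD6 agonist 2, 5 without FZD6 agonist 3, 7 without WNT 2 and 6 without WNT 3.

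**Figure D3:**
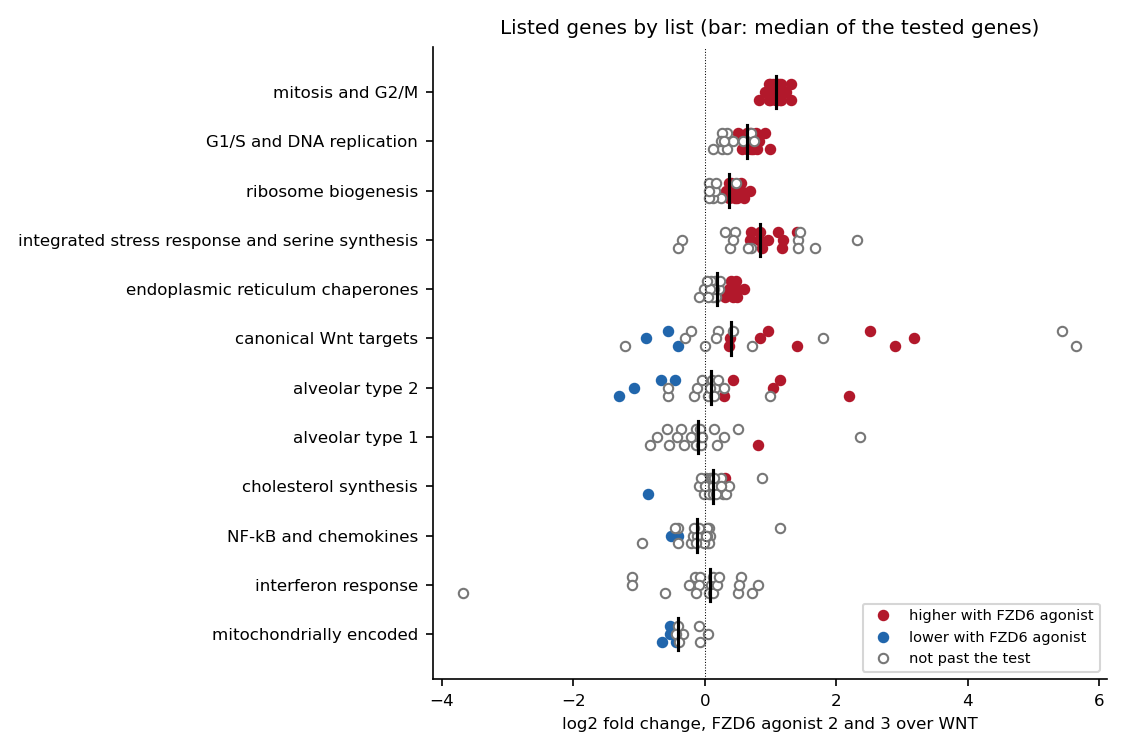
Log2 fold change of each tested gene in 12 lists, FZD6 agonist 2 and 3 over WNT, from the 14-library fit, where red points passed the test as higher, blue as lower, open points did not pass and the black bar is the list's median. The mitosis list lies wholly at 0.83 or above, the Wnt targets spread to both sides, and the 2 open Wnt target points above 5 are genes at 0 in every WNT library, Tnfrsf19 and Prox1, for which the fitted value is no bound.

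The integrated stress response, in which the factor Atf4 turns on amino acid synthesis and transport, was represented among the genes that rose. Of 23 genes of this response and of serine synthesis, 10 rose and 0 fell without FZD6 agonist 1, with a median log2 fold change of 0.84. Over all genes 6.61% rose and 5.19% fell. FZD6 agonist 1 lay above all WNT libraries for 22 of the 23, against 38.5% over all genes. With it in the 18-library fit 0 of 23 were called at a median of 1.66, and in the 15-library fit 15 rose. Phgdh, the first enzyme of serine synthesis (chr3:98313170-98339990, minus strand), was at 25, 7.05 and 7.24 CPM in FZD6 agonist 1, 2 and 3, against 3.60, 3.0 and 2.69 CPM in WNT 1, 2 and 3 (log2 fold change 1.20 with SE 0.16 and adjusted p = 0.000199 in edgeR). Psat1, the next enzyme of the route (chr19:15904678-15947337, minus strand), was at 232, 108 and 104 CPM with the FZD6 agonist and 52.9, 45.9 and 41.5 CPM with WNT (log2 fold change 1.18 with SE 0.13 and adjusted p = 0.0001 in edgeR). Shmt2, which passes a carbon from serine to folate in mitochondria, was at 267, 99.5 and 92.6 CPM with the FZD6 agonist and 58.4, 52.5 and 50.5 CPM with WNT (log2 fold change 0.83 with SE 0.10 and adjusted p = 0.000107 in edgeR). All 3 enzymes were without overlap and kept their calls with any of the 5 libraries left out, and FZD6 agonist 1 held more than 2 times the level of either other FZD6 agonist library. Gdf15, a stress-induced secreted factor, was at 171, 14 and 15.8 CPM with the FZD6 agonist and 8.76, 6.20 and 7.99 CPM with WNT (log2 fold change 0.96 with SE 0.20 and adjusted p = 0.00585 in edgeR), and lost its call without FZD6 agonist 3. Ddit3, a transcription factor of the same response, was at 119, 49.97 and 57.4 CPM with the FZD6 agonist and 18.2, 23.8 and 17.9 CPM with WNT. It did not pass without FZD6 agonist 1 (log2 fold change 1.42 with SE 0.43 and adjusted p = 0.0727 in edgeR) and passed in the 15-library fit (log2 fold change 1.90, edgeR adjusted p = 0.022). The count of 10 was 4 without FZD6 agonist 2 or 3 and 6 without WNT 1 or 3.

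Chaperones of the endoplasmic reticulum rose in 8 of 20 cases and fell in 0 (6.61% and 5.19% over all genes), with a median of 0.19. Hspa5, the main chaperone of the organelle, was at 1015, 1550.3 and 1558 CPM with the FZD6 agonist and 1081, 1139.8 and 1126 CPM with WNT (log2 fold change 0.47 with SE 0.064 and adjusted p = 0.00023 in edgeR). In FZD6 agonist 1 Hspa5 lay below the WNT libraries, against the other 2, as it did for 13 of the 20 genes (38.7% over all genes). Sel1l, of the machinery that disposes of misfolded proteins, was at 576, 669.9 and 678 CPM with the FZD6 agonist and 432, 479.6 and 418 CPM with WNT (log2 fold change 0.60 with SE 0.088 and adjusted p = 0.000428 in edgeR). For Sel1l all 3 FZD6 agonist libraries lay above all 3 WNT libraries. The count of 8 was 4 without FZD6 agonist 2 or 3, and 2 in the 15-library fit.

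Genes of alveolar type 2 identity went in both directions. Of 22 on the list, 5 rose (Etv5, Sftpa1, Lyz1, Lyz2 and Lamp3) and 4 fell (Chil1, S100g, Il33 and Sftpb), with a median log2 fold change of 0.097 and a range of -1.30 (S100g) to 2.19 (Lyz1). Over all genes 6.61% rose and 5.19% fell. With FZD6 agonist 1 kept in the 15-library fit, 3 rose and 3 fell. Sftpc (chr14:70520949-70524081, minus strand) was at 97841, 48421 and 51719.9 CPM with the FZD6 agonist and 50569, 41179 and 42575 CPM with WNT, with overlapping groups (log2 fold change 0.15 with SE 0.13 and adjusted p = 0.519 in edgeR). Sftpa1, surfactant protein A (chr14:41131782-41136452, plus strand), was at 9636, 11129 and 12568 CPM with the FZD6 agonist and 6842, 4373 and 4796 CPM with WNT (log2 fold change 1.14 with SE 0.18 and adjusted p = 0.00168 in edgeR). Etv5, an ETS factor needed to maintain type 2 cells in mice (chr16:22381309-22439719, minus strand), was at 284, 310.3 and 299.9 CPM with the FZD6 agonist and 149.7, 149 and 145 CPM with WNT (log2 fold change 1.04 with SE 0.078 and adjusted p = 1.27e-06 in edgeR). Both were without overlap, close to 2 times the WNT level in FZD6 agonist 2 and 3, and Etv5 was tight within each group. Chil1, a chitinase-like protein of type 2 cells (chr1:134182176-134190181, plus strand), was at 6582, 10901 and 10650.3 CPM with the FZD6 agonist and 16799, 17163 and 17251 CPM with WNT (log2 fold change -0.67 with SE 0.069 and adjusted p = 2.78e-05 in edgeR). All 3 FZD6 agonist libraries lay below WNT for Chil1, FZD6 agonist 1 the furthest. Sftpa1, Etv5, Chil1 and Lyz1 kept their calls with any of the 5 libraries left out, and in the 15-library fit. S100g, a calcium-binding protein, was at 14.5, 32.2 and 33.7 CPM with the FZD6 agonist and 90.4, 72.5 and 78.8 CPM with WNT (log2 fold change -1.30 with SE 0.23 and adjusted p = 0.00468 in edgeR), and lost its call without either FZD6 agonist library. With either of those 2 libraries left out, 3 of the 22 rose and 1 fell.

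Of 20 alveolar type 1 genes 1 rose and 0 fell (6.61% and 5.19% over all genes), with a median of -0.10. FZD6 agonist 1 lay below all WNT libraries for 17 of the 20, against 38.7% over all genes, and 7 of the 20 were lower in every FZD6 agonist library than in any WNT library, against 11.5% over all genes. In the 15-library fit 0 rose and 1 fell. The listed type 1 markers summed to 11044, 11190 and 10951 CPM in FZD6 agonist 1, 2 and 3, and 12007 to 12256 CPM with WNT. Hopx, a homeodomain protein of type 1 cells (chr5:77086988-77115121, minus strand), was at 51.3, 151 and 150.02 CPM with the FZD6 agonist and 233, 260.1 and 247 CPM with WNT. Ager, which encodes a receptor of glycated proteins (chr17:34597862-34600936, plus strand), was at 1099, 1784 and 1684 CPM with the FZD6 agonist and 2525, 2429.98 and 2549 CPM with WNT. Both were lower in every FZD6 agonist library but did not pass, Hopx with a log2 fold change of -0.72 (SE 0.21, edgeR adjusted p = 0.0507) and Ager with -0.54 (SE 0.25, edgeR adjusted p = 0.221). Akap5, an anchor of protein kinase A, was at 146, 593 and 548 CPM with the FZD6 agonist and 309, 355 and 301 CPM with WNT (log2 fold change 0.82 with SE 0.21 and adjusted p = 0.0299 in edgeR). In FZD6 agonist 1 Akap5 lay below the WNT libraries, opposite to the other 2, and the call held only without WNT 2.

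Among airway genes, Hp, haptoglobin, a haemoglobin-binding plasma protein that club cells also express (chr8:109575128-109579172, minus strand), was at 305, 61.7 and 60.2 CPM with the FZD6 agonist and 456, 507 and 631 CPM with WNT (log2 fold change -3.13 with SE 0.15 and adjusted p = 1.24e-07 in edgeR). FZD6 agonist 2 and 3 lay far below the lowest WNT library, and FZD6 agonist 1 lay between. Hp and Cyp2f2, a cytochrome P450 of club cells, were the 2 genes of 10 on the club and secretory list that fell, and 0 rose. Over all genes 5.19% fell and 6.61% rose. Cyp2f2 was at 557, 199 and 145 CPM with the FZD6 agonist and 482, 484 and 522 CPM with WNT (log2 fold change -1.54 with SE 0.41 and adjusted p = 0.0447 in edgeR), and lost its call with any of the 5 libraries left out. The 15 listed club and secretory markers summed to 1357 CPM in FZD6 agonist 1, 283 and 220 CPM in FZD6 agonist 2 and 3, and 959 to 1189 CPM with WNT. Hp and Cyp2f2 made up nearly all of the sum with WNT and in FZD6 agonist 2 and 3, so the sum mostly repeats their values. Scgb1a1, the defining secretoglobin of club cells (chr19:9083636-9087958, minus strand), was at 79.8, 0.214 and 0.300 CPM with the FZD6 agonist and 0.408, 0.353 and 0.667 CPM with WNT, near 0 in all but FZD6 agonist 1. The part of club cells in the fall of Hp and Cyp2f2 was not tested.

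The steepest differences lay in genes of varied function. Called genes were ranked by fold among those with an average log2 CPM of 2 or more, which leaves out Sox9, Axin2 and Lgr5, and with no overlap between groups. Among the 10 highest, Tmem132d, a single-pass membrane protein (chr5:127781630-128433077, minus strand), was at 1.04, 7.74 and 5.21 CPM with the FZD6 agonist and 0.768, 0.314 and 0.191 CPM with WNT (log2 fold change 3.93 with SE 0.47 and adjusted p = 0.000335 in edgeR). Ctnnd2, delta-catenin, an adherens junction protein (chr15:30172593-31029341, plus strand), was at 12.9, 49.1 and 39.5 CPM with the FZD6 agonist and 5.06, 4.06 and 4.67 CPM with WNT (log2 fold change 3.26 with SE 0.17 and adjusted p = 1.24e-07 in edgeR). Tgfb3, a TGF beta ligand (chr12:86056745-86079041, minus strand), was at 41.6, 125 and 108 CPM with the FZD6 agonist and 21.5, 16.6 and 17.8 CPM with WNT (log2 fold change 2.64 with SE 0.25 and adjusted p = 0.000192 in edgeR). For these 3 genes every FZD6 agonist library was above every WNT library, with FZD6 agonist 1 the lowest of its group. The semaphorin Sema5a, the sialomucin Podxl, the circadian repressor Nr1d1, Tmem132c, Lyz1, Susd3 and Klhl29 made up the 10, with log2 fold changes of 1.93 for Klhl29 to 3.17 for Sema5a. For Tmem132c and Podxl FZD6 agonist 1, at 0.595 and 0.802 CPM, was lower than the WNT libraries, which held 2.14, 1.28 and 1.0 CPM of Tmem132c and 1.63, 1.73 and 1.12 CPM of Podxl. Nr1d1 lost its call without FZD6 agonist 3 (log2 fold change 2.32 with SE 0.43 and adjusted p = 0.0089 in edgeR).

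Retnla, a secreted resistin-like protein (chr16:48842551-48844461, plus strand), had the largest fall among the genes ranked, at 3.03, 1.38 and 0.576 CPM with the FZD6 agonist and 29.4, 44.7 and 69.4 CPM with WNT (log2 fold change -5.62 with SE 0.55 and adjusted p = 0.000234 in edgeR). Htra4, a secreted serine protease (chr8:25024929-25038962, minus strand), was at 5.98, 2.66 and 3.0 CPM with the FZD6 agonist and 14.1, 21.4 and 29 CPM with WNT (log2 fold change -2.93 with SE 0.32 and adjusted p = 0.000159 in edgeR). Fbp1, the fructose bisphosphatase of gluconeogenesis (chr13:62864753-62888282, minus strand), was at 81.5, 87.9 and 95.4 CPM with the FZD6 agonist and 335, 264 and 386 CPM with WNT (log2 fold change -1.85 with SE 0.20 and adjusted p = 0.000175 in edgeR). All 3 FZD6 agonist libraries lay below all 3 WNT libraries for each, and the 3 calls held with any of the 5 libraries left out. Mme, the peptidase neprilysin, and Slc10a6, a transporter of steroid sulphates, were likewise lower in every FZD6 agonist library, with log2 fold changes of -2.90 for Mme and -1.96 for Slc10a6, although Mme lost its call without FZD6 agonist 2 or 3. For Chst4, Bmp3, Frrs1 and Abcc8, which also fell, FZD6 agonist 1 lay within or above the WNT range. The sulphotransferase Chst4 was at 9.01, 1.19 and 1.18 CPM with the FZD6 agonist and 7.20, 8.73 and 10.3 CPM with WNT (log2 fold change -2.89 with SE 0.22 and adjusted p = 1.27e-06 in edgeR), and the ligand Bmp3 at 25.9, 3.90 and 2.86 CPM with the FZD6 agonist and 14.8, 18.3 and 15 CPM with WNT (log2 fold change -2.26 with SE 0.18 and adjusted p = 2.61e-06 in edgeR). For Bmp3 FZD6 agonist 1 was the highest of the 6, and none of the 4 was called in the 15-library fit. Abcc8, a subunit of ATP-sensitive potassium channels, had the same arrangement, with 38.6, 3.82 and 2.47 CPM with the FZD6 agonist and 10.7, 11.7 and 17.2 CPM with WNT. Its log2 fold change was -2.07 without FZD6 agonist 1 (SE 0.31, edgeR adjusted p = 0.000975) and 0.18 with it.

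**Figure D4:**
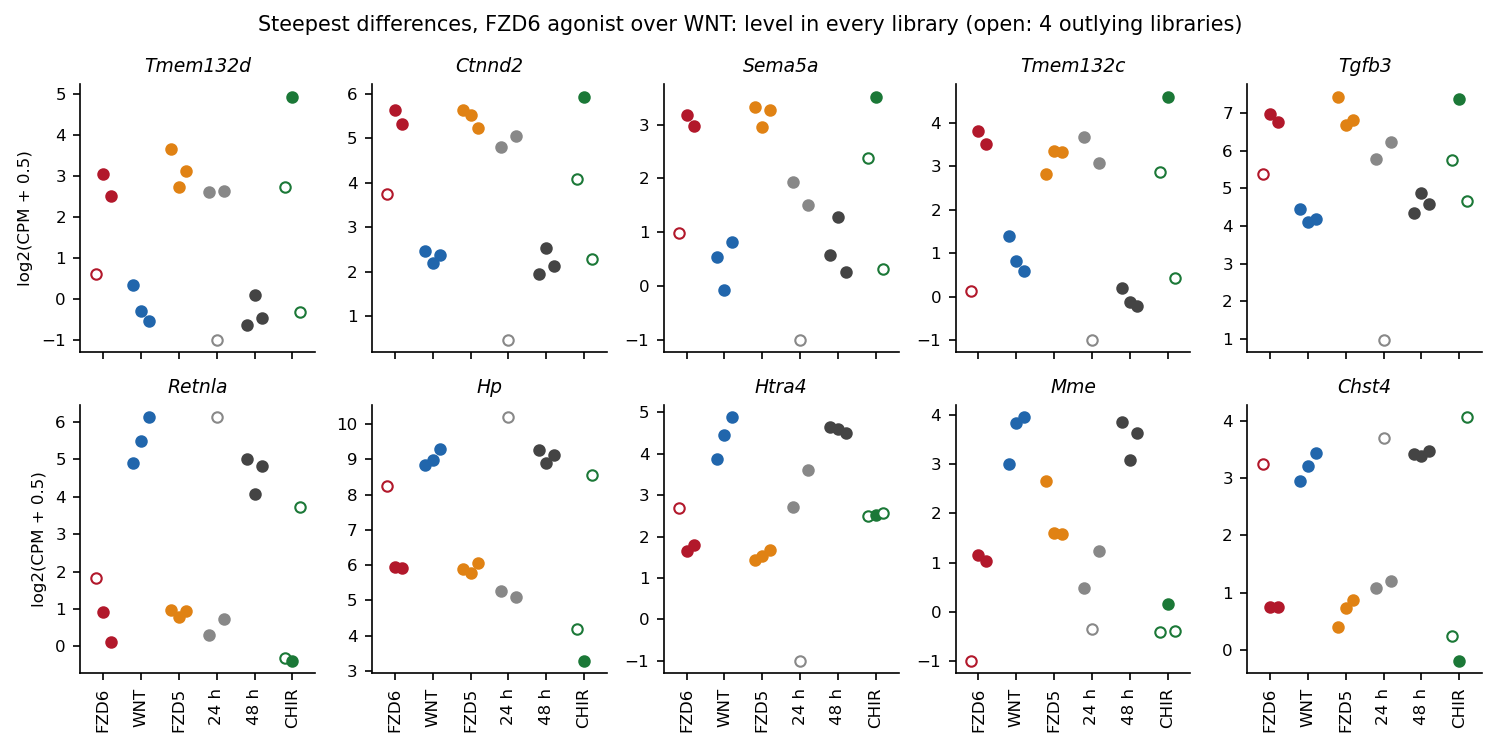
Levels, in all 18 libraries, of the 5 genes with the largest rise (upper row) and the 5 with the largest fall (lower row) among genes that passed without overlap at a mean log2 CPM of 2 or more, as log2 of CPM plus 0.5 on the y axis, with 1 point per library, open for the 4 outlying libraries, and a scale of its own in each panel. FZD6 agonist 2 and 3 lie apart from the 3 WNT libraries in every panel, while the open FZD6 agonist point lies below the WNT points for Tmem132c and among them for Chst4.

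Further calls lay in lipid, growth factor and mitochondrial lists, to be read against 6.61% higher and 5.19% lower over all genes. Fasn, fatty acid synthase, was at 1885, 4342 and 4457 CPM with the FZD6 agonist and 2745, 2838 and 2798 CPM with WNT (log2 fold change 0.65 with SE 0.14 and adjusted p = 0.00952 in edgeR), while the desaturase gene Scd1 was at 52789, 46190.5 and 51529.7 CPM with the FZD6 agonist and 66734, 67225 and 60806 CPM with WNT (log2 fold change -0.42 with SE 0.10 and adjusted p = 0.0123 in edgeR). Scd1 was lower in every FZD6 agonist library, whereas Fasn was lower than WNT in FZD6 agonist 1 and higher in the other 2. Fasn lost its call without FZD6 agonist 2 or 3 and Scd1 without FZD6 agonist 2, and neither they nor Pmvk were called in the 15-library fit. Of 18 genes of fatty acid and phospholipid synthesis 3 rose and 2 fell, and of 24 of cholesterol synthesis 2 rose and 1 fell, the kinase gene Pmvk (log2 fold change -0.87 with SE 0.12 and adjusted p = 0.000336 in edgeR). The cholesterol counts lay near the shares over all genes. Among 17 targets and factors of the YAP and TEAD pathway 4 rose and 0 fell, led by Amotl2 (104, 254 and 235 CPM with the FZD6 agonist, 136, 154 and 141 CPM with WNT; log2 fold change 0.76 with SE 0.074 and adjusted p = 1.77e-05 in edgeR) and Ajuba (89.9, 188 and 207 CPM with the FZD6 agonist, 127, 135 and 121 CPM with WNT; log2 fold change 0.62 with SE 0.086 and adjusted p = 0.000274 in edgeR). FZD6 agonist 1 lay below the WNT libraries for both, neither was called in the 15-library fit, and 1 of the 17 was. Pmepa1, a TGF beta target that dampens that pathway (chr2:173224458-173276533, minus strand), was at 10.9, 14.3 and 14.8 CPM with the FZD6 agonist and 27.6, 24.6 and 30.7 CPM with WNT (log2 fold change -0.93 with SE 0.13 and adjusted p = 0.000264 in edgeR), without overlap. With Tgfb3, the ligand described above, it was 1 of 2 genes called among 16 of the TGF beta list, near the 11.8% called over all genes. Of 18 FGF and ERK genes, Egfr, the epidermal growth factor receptor (log2 fold change 1.02 with SE 0.22 and adjusted p = 0.00652 in edgeR), and Dusp5, a phosphatase of ERK (log2 fold change 1.26 with SE 0.31 and adjusted p = 0.0172 in edgeR), rose and 0 fell. That number was again near the 11.8% called over all genes. Egfr lost its call without FZD6 agonist 2 and in the 15-library fit (log2 fold change 0.82, edgeR adjusted p = 0.081), and Dusp5 without FZD6 agonist 2, FZD6 agonist 3 or WNT 1.

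Of 11 mitochondrially encoded genes 4 fell and 0 rose (5.19% and 6.61% over all genes), with a median log2 fold change of -0.40. The complex I subunit gene mt-Nd5 was at 252, 236 and 236 CPM with the FZD6 agonist and 407, 305 and 306 CPM with WNT (log2 fold change -0.53 with SE 0.11 and adjusted p = 0.00391 in edgeR). Its groups did not overlap, and the call was lost without FZD6 agonist 2, without which 0 of the 11 were called. Mitochondrially encoded genes took 0.356%, 0.388% and 0.431% of counts in FZD6 agonist 1, 2 and 3 and 0.442% to 0.659% with WNT, and the part of RNA quality in this was not tested. In the NF-kB and chemokine list 0 of 21 rose and 2 fell, Birc3 (log2 fold change -0.41 with SE 0.079 and adjusted p = 0.00342 in edgeR) and Relb (log2 fold change -0.51 with SE 0.11 and adjusted p = 0.00818 in edgeR), of which Birc3 lost its call without FZD6 agonist 2 and Relb without FZD6 agonist 3. Both were called in the 15-library fit. The counts of this list are to be read against 6.61% higher and 5.19% lower over all genes. By edgeR 0 genes were called of 20 in the interferon response list, 13 in antigen presentation, 22 in hypoxia and glycolysis, and 11 in Notch signalling. Over all genes 11.8% were called.

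Counts in the other lists without FZD6 agonist 1 are to be read against 6.61% higher and 5.19% lower over all genes. With 1 call each, the junction, basement membrane, BMP, heat shock and p53 lists lay near those shares. In the transitional epithelial state list 2 of 17 genes rose, Hbegf and Plaur, and 1 fell, the secreted chaperone Clu (log2 fold change -0.53 with SE 0.11 and adjusted p = 0.00422 in edgeR). Clu was at 3792, 1500.2 and 1389.8 CPM with the FZD6 agonist and 1791, 2046 and 2381 CPM with WNT. Its call was lost without FZD6 agonist 3, and its sign turned in the 15-library fit (log2 fold change 0.087, edgeR adjusted p = 0.898). Of 12 immediate early genes 2 rose and 3 fell. The transcription factor Klf6 was the clearest, at 98.2, 137 and 139 CPM with the FZD6 agonist and 78.9, 93.1 and 80.9 CPM with WNT (log2 fold change 0.71 with SE 0.10 and adjusted p = 0.000437 in edgeR). Tjp1, the tight junction scaffold ZO-1, was the 1 gene of 12 called among claudins and junctions (73.5, 179.7 and 178 CPM with the FZD6 agonist, 95.8, 126 and 112 CPM with WNT; log2 fold change 0.68 with SE 0.10 and adjusted p = 0.000353 in edgeR). Lamc1, a laminin chain, was the 1 of 15 called in the basement membrane list (229.98, 396 and 388 CPM with the FZD6 agonist, 247, 279.9 and 281 CPM with WNT; log2 fold change 0.53 with SE 0.10 and adjusted p = 0.00276 in edgeR). Klf6, Tjp1 and Lamc1 kept their calls with any of the 5 libraries left out. With FZD6 agonist 1 kept in the 15-library fit Klf6 was called (log2 fold change 0.56, edgeR adjusted p = 0.0405), and Tjp1 (0.36, edgeR adjusted p = 0.44) and Lamc1 (0.32, edgeR adjusted p = 0.321) were not. Etv5, Sox9 and Id2 were the 3 that rose among 17 lung epithelial transcription factors, and Id2 was also the 1 that rose among 14 genes of BMP signalling, with 0 lower in either list. Hsph1 rose among 10 heat shock genes, with a call lost on every omission, and Fas fell among 15 targets of p53. Of the marker lists of other cells, 1 of 7 ciliated genes (Tubb4b) and 1 of 2 endothelial genes (Esam) rose. In the other marker lists 0 were called of 3 basal, 4 neuroendocrine, 3 mesenchymal and 2 haematopoietic genes.

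The FZD5 agonist, CHIR withdrawal and CHIR libraries are not part of the comparison, and the called genes were also read there. Of the 1153 genes that rose, 1143 (99.1%) were higher on average in the FZD5 agonist libraries than after 48 h of withdrawal, against 51.2% of all genes tested. In 24 h withdrawal 1 and 3, 1070 (92.8%) were higher than after 48 h, against 52.8% of all genes. Of the 904 genes that fell, 895 (99.0%) were lower with the FZD5 agonist than after 48 h, against 48.8% of all genes, and 792 (87.6%) were lower after 24 h, against 47.2%. CHIR 2, the 1 CHIR library in the fit, had 1087 of the risen genes (94.3%) above the 48 h mean, against 51.2% of all genes. It had 848 of the fallen genes (93.8%) below that mean, against 48.7%. FZD6 agonist 1, which the fit did not use, had 659 of the risen genes (57.2%) above the 48 h mean and 481 of the fallen genes (53.2%) below it, against 47.8% and 51.9% of all genes. These shares are descriptions without a test, and genes of 1 library are not independent of each other.

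Axin2, Mki67, Etv5 and Hp serve as examples, picked after their values were seen. Axin2 averaged 2.51 ± 0.549 CPM in FZD6 agonist 2 and 3, 0.332 ± 0.0811 CPM with WNT, 3.59 ± 1.17 CPM with the FZD5 agonist and 0.450 ± 0.304 CPM after 48 h of withdrawal (SD). Mki67 averaged 144 ± 26.3 CPM in FZD6 agonist 2 and 3, 65.7 ± 1.81 CPM with WNT, 138 ± 22.9 CPM with the FZD5 agonist and 58.9 ± 6.99 CPM after 48 h of withdrawal. Etv5 averaged 305 ± 7.38 CPM in FZD6 agonist 2 and 3, 148 ± 2.86 CPM with WNT, 293 ± 30.1 CPM with the FZD5 agonist and 143 ± 6.21 CPM after 48 h of withdrawal. Hp averaged 60.9 ± 1.07 CPM in FZD6 agonist 2 and 3, 531 ± 89.7 CPM with WNT, 60.04 ± 5.98 CPM with the FZD5 agonist and 546 ± 68.5 CPM after 48 h of withdrawal. For these 4 genes the WNT level lay near that after 48 h of withdrawal and the level in FZD6 agonist 2 and 3 near that with the FZD5 agonist. Their levels after 24 h of withdrawal and with CHIR are not given here. As a set, the called genes leaned the same way in those libraries, so the pattern is not particular to the agonists.

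**Figure D5:**
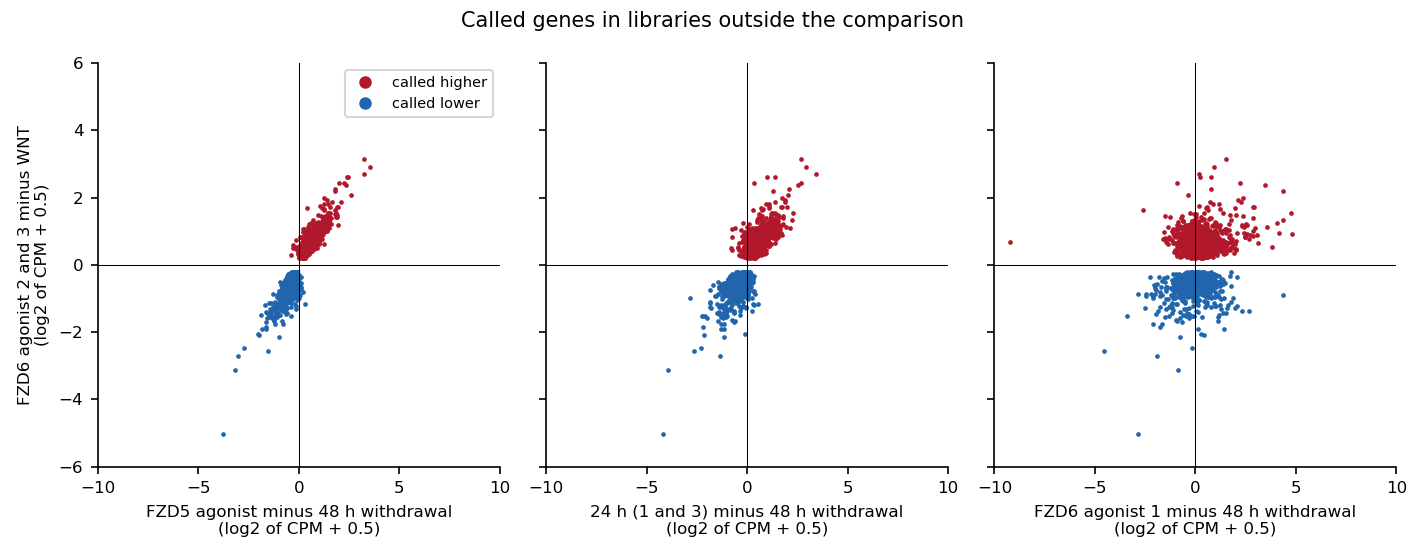
Each point is a gene called without FZD6 agonist 1 (red higher, blue lower), with the difference of FZD6 agonist 2 and 3 minus WNT on the y axis and, on the x axis, the difference from the 48 h withdrawal mean of the FZD5 agonist (left), of 24 h withdrawal 1 and 3 (middle) and of FZD6 agonist 1 (right), on log2 of CPM plus 0.5. In the left panel 99.1% of red and 99.0% of blue points lie on the matching side of 0, against 57.2% and 53.2% in the right panel, whose far left red point is Esr1.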

How the data were processed

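Libraries were made from total RNA with a stranded kit, per the labels' protocols. The authors aligned reads with GSNAP to GRCm38, per the submitters' processing notes, and deposited for each library a raw count and an RPKM value per gene, per the file headers. Versions, annotation, strand use and counting tool were not given in the sources used here, so overlapping genes and near-copies are uncertain. All tests used the deposited counts. The RPKM values, which the authors divided by gene length and library size, served only to order receptor levels. Symbols and positions came from GENCODE M21 for 52403 of 52636 gene identifiers.

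The counts were tested with the quasi-likelihood test of edgeR 4.0.16 with robust fitting, filterByExpr and TMM, with limma 3.58.1 and DESeq2 1.42.0 in R 4.3.3 as alternatives. A call is a Benjamini-Hochberg adjusted p under 0.05 over all genes tested, 16497 in the fit of 18 libraries and 17433 in that of 14. In the smaller fit CHIR is 1 library, so its filter lets through genes detected in few libraries. CPM are on TMM-scaled sizes, and levels between genes were compared only as RPKM. A ± is an SD unless marked SE. The scripts were tested on simulated data. Total counts of 41480168 to 52030066 per library make counting error small for all but the lowest genes.

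The genes named were the 10 higher and 10 lower called genes with the largest fold that had a regular symbol, groups without overlap and a mean log2 CPM of 2 or more, up to 4 called members of each list with the smallest p, and 11 set genes. Others were chosen after their values were seen: Steap1, Car2, Mcpt2, Mical1, Esr1, Xist, Lyz2, Ddit3, Cdk1 and further list members. The members of the comparison and the lists were chosen with earlier results of these data known. Promoter sequences are from RefSeq on GRCm38.p6. Alternatives changed the scaling, filter, tool, libraries fitted, fold tested and replicate block, and each of the 6 libraries was left out. The 15-library fit and limma voom with quality weights were chosen after seeing the data.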

Additional observations from a re-analysis of the deposited data

How the results depend on the processing

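With all libraries, where 0 genes were called, the count was 61 with DESeq2, 4 with no filter on low counts, 9 in a fit of only the 2 groups, 3674 with limma voom and quality weights and 739 in the 15-library fit. Leaving out 1 library at a time gave 0 to 2, the 2 being without FZD6 agonist 3. Abcc8 changed sign to -2.13 with limma voom, from a log2 fold change of 0.18, and ranged from -2.06 without FZD6 agonist 1 to 0.69 without FZD6 agonist 3. Scgb1a1 changed sign to -0.74 with limma voom, from 5.81, and ranged from -0.88 without FZD6 agonist 1 to 6.39 without FZD6 agonist 2. For both genes FZD6 agonist 1 held the highest level of the 6 libraries.

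Without FZD6 agonist 1, where 2057 genes were called, the count was 148 against a tested fold of 1.5 (97 higher, 51 lower), 4003 with limma voom, 0 in the 17-library fit and 644 to 1637 with 1 further library left out. The comparison gave 2509 with DESeq2, 2726 with no filter and 2895 with only the 2 groups, and upper-quartile scaling gave 2096, of which 47.1% were higher against 56.1% with TMM. Fzd5, which did not pass, changed sign to -0.036 without FZD6 agonist 2 and was at 0.30 without FZD6 agonist 3. Why counts moved between tools and fits was not tested. Of 158 genes called without FZD6 agonist 1 whose values per library were written out, 73 were called in the same direction in the 15-library fit that keeps it, 82 kept their sign without a call and 3 turned sign (Abcc8, Clu and Jund).

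Replicate numbers were entered as a replicate block in both fits. The calls went to 0 with all libraries and to 1494 (843 higher, 651 lower) without FZD6 agonist 1. Deviations of same-numbered libraries from their group means had correlations of 0.027, 0.048 and -0.063. The FZD6 agonist mean included the outlying FZD6 agonist 1, which sets much of the deviation of FZD6 agonist 2 and 3 as well. These values therefore cannot decide whether the numbers pair the libraries. The labels do not settle it either, and the main fits left the numbers out.

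The comparison rests on 2 FZD6 agonist libraries once FZD6 agonist 1 is left out, and on single libraries for many calls. Over the called genes named, 50 kept their call on all 5 omissions, 19 on 4 and 24 on fewer.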

Other observations

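Esr1, the oestrogen receptor gene, rose without FZD6 agonist 1 and was at 0 counts in that library. The same gene was at 0 in 2 libraries of other groups, 24 h withdrawal 2 and CHIR 3, and Xist was low in these 3 libraries too. In the other libraries Esr1 was at 209 CPM or above.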
